A study of Homo sapiens with 14 samples.

Results

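The kinesin and dynein motor genes are described here across human HEK293 cells that carried HOXD13 or HOXD9. The members were the genes whose symbol in the array annotation began with KIF and a number, with DYNC, or with DNAH and a number, apart from DNAH17. The rule found 64 genes of the 19775 that had a probe set of their own. Of these, 59 code for proteins and 5 were noncoding genes named after a motor gene (DNAH17-AS1, KIF1C-AS1, KIF23-AS1, KIF25-AS1 and KIF9-AS1). Of the 64 members, 39 passed the filter for signal, a log2 value of 5 or more on 3 or more of the 14 arrays, and 25 did not.

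The HOXD13 group held 4 lines of HEK293, a kidney-derived cell line, that carried V5-tagged HOXD13: a mixed population called the mix, and clones a, b and c picked out of it. It was compared with 3 arrays of cells that carried the V5 tag vector alone. The HOXD9 group held a mix and clones a, b and c with HA-tagged HOXD9, and was compared with 3 arrays of cells that carried the HA tag vector alone. All 14 cultures had been kept under G418, which kills cells lacking the resistance gene of the plasmid. Each line was measured on 1 array and each clone came from the mix of its own gene, so the 4 lines are related. The tests below counted the 4 lines as separate replicates and took no account of this. The vector arrays are named as biological replicates, with no word on how the cultures were kept apart, so the spread between them may be partly technical. The p-values use, for each gene, a spread pooled over all 4 groups. The related HOX lines, which vary more than the vector arrays, contribute most of it. The p-values cover only the spread within these 14 arrays. HOXD13 and HOXD9 are homeodomain transcription factors of limb and urogenital development, and the design asked what each does to the transcripts of this cell line.

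Kinesins and dyneins are ATP-driven motors that walk along microtubules. Most kinesins move toward the growing plus end and carry vesicles and organelles outward, others build and shorten the mitotic spindle, and cytoplasmic dynein moves toward the minus end. The second cytoplasmic dynein returns cargo from the tip of the cilium, and axonemal dynein heavy chains bend motile cilia and sperm tails. HEK293 cells divide quickly and have no motile cilia, and in dividing cells the mitotic kinesins are made in G2 and M phase under an element in their promoters called the cell cycle genes homology region.

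Most promoter windows of the tested mitotic kinesins held the core letters of that element. Windows of 250 bases before to 50 bases after the annotated start, from RefSeq on GRCh38.p14, were found for 36 of the 39 tested members, and 46 windows were searched on both strands. The letters TTTGAA, the core of the element, stood in 8 of the 12 windows (66.7%) of the tested mitotic kinesins, in 2 of the 34 windows (5.88%) of the other tested members, and in 15.2% of all 35116 windows of the table. The 8 mitotic kinesins were KIF11, KIF14, KIF15, KIF18A, KIF18B, KIF20B, KIF23 and KIF4A, and the others were DYNC2I2 and KIF5B. The letters CAATAAA, which posterior HOX proteins such as HOXD13 are known to bind, stood in 2 of the 46 member windows (4.35%), those of KIF1A and KIF3B, and in 4% of all windows. In KIF20B the letters TTTGAA stand in 2 adjacent copies. A match describes the letters of a window and is not a binding site. Among the mitotic kinesins with TTTGAA, KIF4A (-0.33) and KIF18B (-0.10) were below the V5 vector mean in HOXD13 clone c and the others above it. Of the members with CAATAAA, KIF1A fell with HOXD13, while KIF3B differed by 0.17 and was not called. A link between letters and shifts was not tested. Shown are KIF14, KIF18A and KIF20B, the members with the highest shifts in HOXD13 clone c, with TTTGAA or its reverse complement in capitals. Also shown is the 1 window of KIF1A that held CAATAAA, with its reverse complement in capitals. The windows lie at chr1:200620702-200621001 (minus strand, KIF14), chr11:28108107-28108406 (minus strand, KIF18A), chr10:89701340-89701639 (plus strand, KIF20B) and chr2:240821354-240821653 (minus strand, 1 of the 3 windows of KIF1A), and each is written 5′ to 3′ along its gene.
KIF14: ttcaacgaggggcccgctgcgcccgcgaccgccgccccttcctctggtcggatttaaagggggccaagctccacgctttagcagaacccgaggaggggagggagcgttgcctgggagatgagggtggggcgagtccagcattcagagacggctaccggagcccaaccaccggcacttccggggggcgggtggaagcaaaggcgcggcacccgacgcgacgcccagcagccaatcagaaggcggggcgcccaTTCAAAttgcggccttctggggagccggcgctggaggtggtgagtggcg
KIF18A: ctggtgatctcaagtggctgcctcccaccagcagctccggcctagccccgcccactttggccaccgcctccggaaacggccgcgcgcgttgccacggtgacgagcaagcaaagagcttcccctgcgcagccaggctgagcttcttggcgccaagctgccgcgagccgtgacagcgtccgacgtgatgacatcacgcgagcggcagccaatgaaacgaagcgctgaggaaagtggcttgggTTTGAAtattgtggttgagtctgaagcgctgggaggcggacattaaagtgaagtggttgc
KIF20B: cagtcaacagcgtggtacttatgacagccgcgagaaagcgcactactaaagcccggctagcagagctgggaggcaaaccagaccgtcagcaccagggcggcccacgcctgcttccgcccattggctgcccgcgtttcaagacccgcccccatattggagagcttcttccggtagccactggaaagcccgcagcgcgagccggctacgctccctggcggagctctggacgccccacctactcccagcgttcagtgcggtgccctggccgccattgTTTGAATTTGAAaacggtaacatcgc
KIF1A: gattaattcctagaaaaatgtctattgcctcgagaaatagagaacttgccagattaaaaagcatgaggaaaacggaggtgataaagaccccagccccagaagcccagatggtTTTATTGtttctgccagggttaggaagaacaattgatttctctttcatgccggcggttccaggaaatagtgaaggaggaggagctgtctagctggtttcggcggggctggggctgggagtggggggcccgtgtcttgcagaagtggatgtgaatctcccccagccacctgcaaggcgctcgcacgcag

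The HOX lines spread more widely than the vectors. The median SD over the 39 tested members was 0.26 in the HOXD13 lines (n = 4) against 0.05 in the V5 vector arrays (n = 3), and 0.29 in the HOXD9 lines (n = 4) against 0.05 in the HA vector arrays (n = 3), on the log2 scale. Over all genes tested the median SD was similar, 0.26 in the HOXD13 lines, 0.27 in the HOXD9 lines and 0.05 in each vector group. The brightest HOXD13 probe set read 12.2 to 12.6 in the HOXD13 lines and 6.84 to 7.01 in the V5 vector, and the brightest HOXD9 probe set read 6.65 to 7.76 in the HOXD9 lines and 2.52 to 2.83 in the HA vector. HEK293 and epithelial markers were above the filter for 4 of 7 genes, and markers of motile ciliated cells for 0 of 7, of leukocytes for 0 of 4, of endothelium for 0 of 3, of neurons for 2 of 6 (SYT1 and GAD1) and of fibroblasts for 1 of 4 (COL1A1). No marker of any of these lists was called with HOXD13 or with HOXD9 against its vector by limma, and GAD1 was called in the difference of effects given further on. The difference between 3′ and 5′ control probe sets of ACTB, a measure of RNA integrity, was 2.80 in HOXD13 clone c, 1.82 to 2.13 in the other HOXD13 lines and 2.19 to 2.26 in the V5 vector. It was 1.70 in HOXD9 clone a, 2.10 to 2.35 in the other HOXD9 lines and 2.29 to 2.37 in the HA vector. The arrays read RNA of whole cultures, in which fewer cells of a type and less RNA per cell cannot be told apart.

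With HOXD13, 1 of the 39 tested motor genes rose and 3 fell. KIF9, a kinesin of the sperm tail and motile cilium, was higher, and KIF21B, KIF1A and DYNC1I2 were lower. No other member was called: these were 4 of the 39 tested members at an adjusted p under 0.05 (limma, Benjamini-Hochberg over 10349 genes), beside 10.6% of all genes tested. The background was 2.88% in the higher and 7.76% in the lower direction. The median log2 fold change of the tested members was -0.07, beside -0.03 over all genes tested. Leaving out any 1 of the 6 vector arrays, the HOXD13 mix, clone a or clone b left 1 or 2 members called.

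KIF21B, a kinesin-4 motor of neurons and lymphocytes that slows microtubule growth, fell furthest of the 39. Its log2 value was 5.48, 5.69, 5.53 and 6.01 in the HOXD13 mix and clones a, b and c, while the 3 V5 vector arrays read 6.97, 6.95 and 6.89. All 4 HOXD13 lines lay below all 3 vector arrays, with clone c the nearest to them. The log2 fold change was -1.25 ± 0.16 (SE), or 0.419 times the vector level, with an adjusted p of 0.00105 from limma. KIF21B had no second probe set. No promoter window was found for it, so it was not searched for TTTGAA or CAATAAA. Its call held in all 23 of the other settings in which it was tested. It was not tested under a filter of at least 7 on at least 4 arrays.

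**Figure D1:**
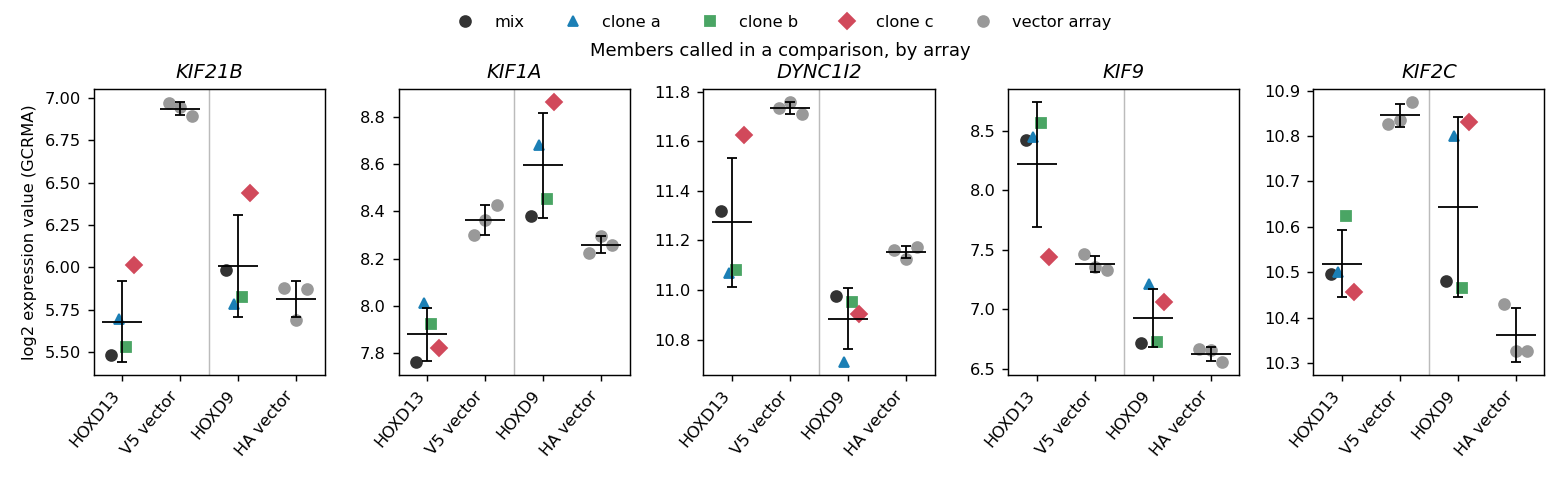
Log2 expression value of the 5 members called in a comparison, by array, for HOXD13 lines, V5 vector, HOXD9 lines and HA vector; points are arrays and the bars give the mean and SD (n = 4 lines, n = 3 vector arrays). KIF21B reads 5.48 to 6.01 in the HOXD13 lines and 6.89 to 6.97 in the V5 vector, and clone c of HOXD13 stands at vector level for KIF9; values left and right of the grey line were normalized separately.

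KIF1A, the kinesin-3 that carries synaptic vesicle precursors in neurons, was lower in all 4 HOXD13 lines. It read 7.76, 8.01, 7.92 and 7.82 in the HOXD13 mix and clones a, b and c, while the V5 vector arrays read 8.30, 8.36 and 8.43. The 4 lines stood close together and did not overlap the vectors. The log2 fold change was -0.49 ± 0.12 (SE), with an adjusted p of 0.0226 from limma. A second, dimmer probe set of KIF1A differed by -0.17, and the call ended with the mean of both sets (adjusted p = 0.248), without the HOXD13 mix (0.0712) and without any 1 of the V5 vector arrays (0.0685 to 0.109).

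DYNC1I2, an intermediate chain that links cytoplasmic dynein to dynactin, read 11.32, 11.07, 11.08 and 11.62 in the HOXD13 mix and clones a, b and c, while the V5 vector arrays read 11.73, 11.76 and 11.71. All 4 lines lay below the vectors, with clone c the nearest to them. The log2 fold change was -0.46 ± 0.13 (SE), with an adjusted p of 0.0393 from limma. The call ended in 13 of 24 other settings, with adjusted p-values of 0.0524 to 0.138, among them the omission of any 1 vector array, of the HOXD13 mix, clone a or clone b, and of the HOXD9 mix.

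KIF9 read 8.43, 8.45, 8.56 and 7.44 in the HOXD13 mix and clones a, b and c, while the V5 vector arrays read 7.46, 7.36 and 7.33. The mix, clone a and clone b stood well above every vector array, and clone c lay among the vectors. The log2 fold change was 0.84 ± 0.23 (SE), or 1.78 times the vector level, with an adjusted p of 0.0345 from limma. A dimmer probe set of KIF9 differed by 0.73. Both probe sets are of a kind that can also bind other transcripts, per the platform's naming, so the reading for KIF9 is uncertain. The call ended in 12 of 24 other settings (adjusted p = 0.0530 to 0.126), among them the omission of any 1 of the 6 vector arrays and of the HOXD13 mix, clone a or clone b. Without HOXD13 clone c the log2 fold change was 1.10 ± 0.13 (SE).

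Among the spindle motors, 0 of the 11 tested mitotic kinesins were called with HOXD13, and their median log2 fold change was 0.05. KIF2C, which takes tubulin off microtubule ends at centromeres, came nearest. It read 10.50, 10.50, 10.62 and 10.46 in the HOXD13 mix and clones a, b and c, while the V5 vector arrays read 10.83, 10.84 and 10.88. The groups did not overlap, but the difference of -0.33 ± 0.11 (SE) missed the threshold (adjusted p = 0.0733). KIF20A, which brings the chromosomal passenger complex to the central spindle, read 9.61, 9.77 and 9.93 in the mix, clone a and clone b and 8.91 in clone c, against 8.96 to 9.01 in the V5 vector. Clone c lay below the vectors and the other lines above, and the log2 fold change of 0.56 ± 0.21 (SE) had an adjusted p of 0.102. KIF11, whose sliding of antiparallel microtubules separates the spindle poles, differed by -0.34 ± 0.28 (SE, adjusted p = 0.463). Its back-up KIF15 differed by -0.29 ± 0.28 (SE, adjusted p = 0.546).

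KIF20B, KIF18A and KIF14 each had HOXD13 lines on both sides of the vectors. KIF20B, a motor of abscission at the end of division, read 8.15, 7.09, 7.25 and 9.21 in the HOXD13 mix and clones a, b and c, while the V5 vector arrays read 7.54, 7.36 and 7.43. The mix and clone c stood above the vectors and clones a and b below them, a range of 2.12 that was the widest of any tested member. KIF18A, which dampens the swings of chromosomes at the metaphase plate, read 7.04, 6.57, 6.51 and 7.96 in the HOXD13 mix and clones a, b and c, while the V5 vector arrays read 6.70, 6.89 and 6.64. KIF14, a partner of PRC1 at the midbody that was singled out after its values were seen, read 8.54, 7.92, 8.04 and 9.39 in the same 4 lines, while the V5 vector arrays read 8.36, 8.28 and 8.25. For KIF18A and KIF14 the mix and clone c were likewise the high lines. The differences of KIF20B (0.48 ± 0.39), KIF18A (0.28 ± 0.36) and KIF14 (0.17 ± 0.30, all SE) did not pass the threshold (adjusted p = 0.467, 0.682 and 0.760).

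Of the transport kinesins, KIF1A alone of the 11 tested passed the threshold with HOXD13, and their median log2 fold change was 0.08. KIF3C, a neuronal kinesin-2 subunit, read 7.07, 7.45, 7.52 and 6.24 in the HOXD13 mix and clones a, b and c, while the V5 vector arrays read 6.63, 6.48 and 6.04. Its clone c lay within the vectors, whose SD of 0.31 was the largest of the tested members in the V5 vector, and the log2 fold change of 0.69 ± 0.27 (SE) had an adjusted p of 0.116. KIF13B, which carries membrane proteins to the cell surface, read 6.43 to 6.80 in the HOXD13 lines and 6.93 to 7.19 in the V5 vector, a difference of -0.36 ± 0.15 (SE, adjusted p = 0.136). KIF1B, a carrier of mitochondria and synaptic vesicle precursors, differed by 0.38 ± 0.19 (SE, adjusted p = 0.232), with clone c below and the other 3 lines above the vectors. Its other probe sets differed by 0.46 and -0.02. KIF5B, the ubiquitous kinesin-1 heavy chain, differed by -0.13 ± 0.26 (SE), and KIF5C, a neuronal one, by -0.37 ± 0.27 (SE). For KIF16B, a motor of early endosomes, the probe set used differed by 0.08, while a dimmer one differed by -1.23, and the mean of both was called at -0.58 (adjusted p = 0.0292).

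Among the other kinesins, KIF7, which acts at the tip of the primary cilium in Hedgehog signalling, differed by 0.31 ± 0.15 (SE, adjusted p = 0.202) with HOXD13. KIF2A, a microtubule depolymerase, read 9.57 to 9.77 in the HOXD13 lines and 9.81 to 9.88 in the V5 vector, a difference of -0.21 ± 0.11 (SE, adjusted p = 0.234). KIF21A, the close relative of KIF21B, read 9.29, 9.05, 8.77 and 10.45 in the HOXD13 mix and clones a, b and c, while the V5 vector arrays read 9.68, 9.74 and 9.73. Clone c of KIF21A stood above the vectors and the other 3 lines below them. The log2 fold change of KIF21A was -0.33 ± 0.34 (SE).

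**Figure D2:**
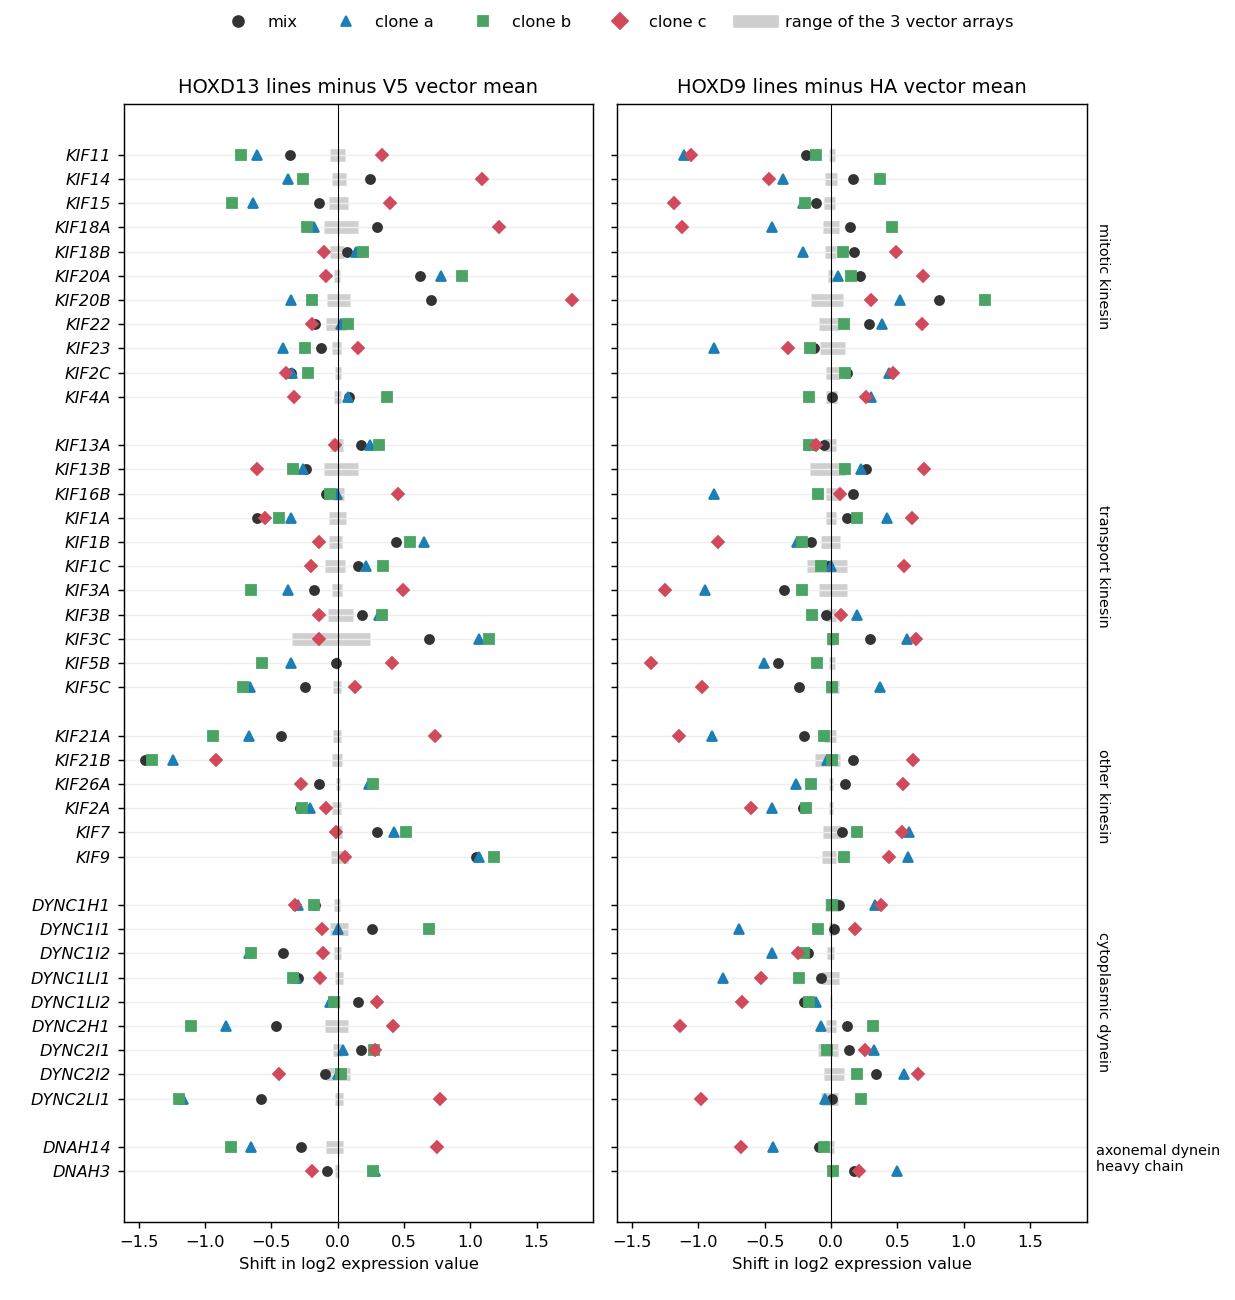
Shift of each HOX line from the mean of its own 3 vector arrays (log2, horizontal axis) for the 39 tested members in groups by role (vertical axis), with HOXD13 lines on the left and HOXD9 lines on the right; grey bars give the range of the vector arrays. Red diamonds (clone c) lie opposite the other lines for many HOXD13 members, and at -1.36 for KIF5B and 1.77 for KIF20B they reach the ends of their panels.

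All 9 cytoplasmic dynein subunits were tested. With HOXD13, DYNC1I2 fell and the median log2 fold change of the 9 was -0.24. DYNC1H1, the heavy chain that holds the motor domain, read 10.92, 10.79, 10.91 and 10.77 in the HOXD13 mix and clones a, b and c, while the V5 vector arrays read 11.10, 11.06 and 11.10. All 4 lines of DYNC1H1 lay below the vectors, and the difference of -0.24 ± 0.11 (SE) had an adjusted p of 0.166. The light intermediate chain DYNC1LI1, which binds cargo adaptors, was also below the vectors in all 4 lines, with -0.27 ± 0.15 (SE, adjusted p = 0.259). The other light intermediate chain, DYNC1LI2, differed by 0.09 ± 0.14 (SE), and DYNC1I1, the intermediate chain known from neurons, by 0.21 ± 0.21 (SE).

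The ciliary dynein subunits gave wide intervals. DYNC2H1, the heavy chain of the second cytoplasmic dynein, read 6.85, 6.48, 6.21 and 7.74 in the HOXD13 mix and clones a, b and c, while the V5 vector arrays read 7.39, 7.33 and 7.22. DYNC2LI1, its light intermediate chain, read 7.64, 7.05, 7.02 and 8.99 in the same HOXD13 lines, while the V5 vector arrays read 8.20, 8.20 and 8.25. For both, clone c stood above the vectors and the other 3 lines below. Their log2 fold changes were -0.50 ± 0.35 and -0.54 ± 0.40 (SE, adjusted p = 0.393 and 0.416). Other probe sets of DYNC2LI1 differed by -0.64 and 0.26. DYNC2I1, an intermediate chain of the same complex, was the 1 tested member above the vectors in all 4 HOXD13 lines, by 0.19 ± 0.11 (SE, adjusted p = 0.261). DYNC2I2, its partner chain, differed by -0.13 ± 0.14 (SE).

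**Figure D3:**
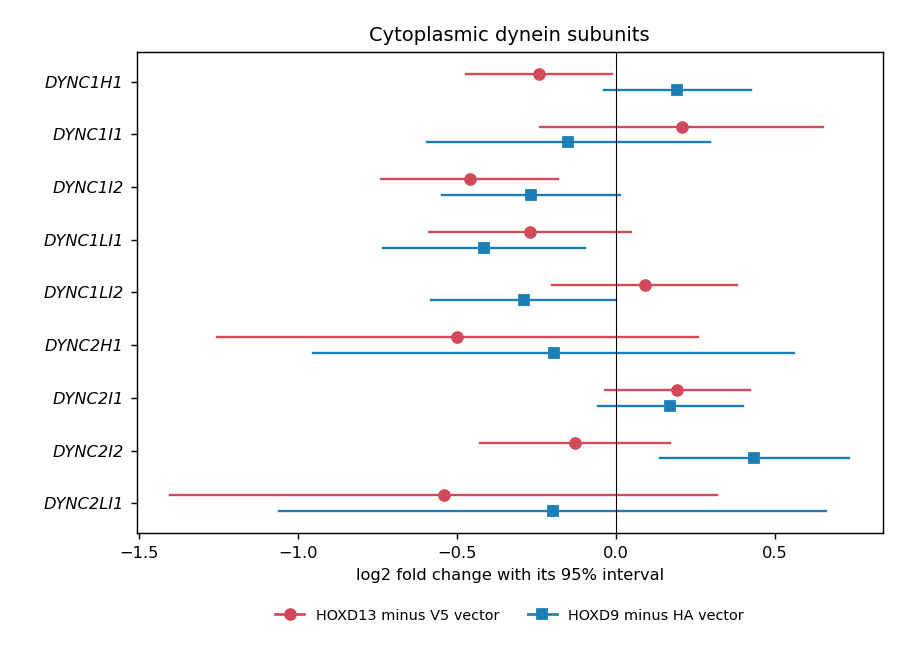
Log2 fold change (horizontal axis) with its 95% interval from limma for the 9 cytoplasmic dynein subunits, as HOXD13 minus V5 vector (red circles) and HOXD9 minus HA vector (blue squares). DYNC1I2 stands at -0.46 with HOXD13, and the intervals of DYNC2H1 and DYNC2LI1 are the widest.

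Axonemal dynein heavy chains were mostly at the floor of the array. Of the 12 members, 10 did not pass the filter and read 2.18 to 5.18. DNAH14 read 8.70, 8.32, 8.18 and 9.73 in the HOXD13 mix and clones a, b and c, while the V5 vector arrays read 8.89, 9.02 and 9.02, a difference of -0.25 ± 0.29 (SE). DNAH3 read 4.54 to 5.02 in the HOXD13 lines and 4.71 to 4.75 in the V5 vector, a difference of 0.07 ± 0.14 (SE). The probe set of DNAH3 is of the same kind as those of KIF9, so its reading is also uncertain. Clone c was the high line for DNAH14 and the low line for DNAH3. Of the 4 probe sets of DNAH14 and the 5 of DNAH3, only 1 of each gene passed the filter. The 5 noncoding members read 2.15 to 2.61 on all 14 arrays, and the other members without a test were KIF2B, KIF5A, KIF17 and 7 further kinesins, of which KIF26B alone reached 5 on any array (5.34).

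By position alone, 9 of the 39 members had all 4 HOXD13 lines outside the 3 V5 vector arrays, 1 above and 8 below, beside 28.9% of all genes tested (8.59% above and 20.3% below). The 8 below were KIF21B, KIF1A, DYNC1I2, KIF2C, KIF13B, KIF2A, DYNC1H1 and DYNC1LI1. The members' share was not above the background.

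HOXD13 clone c went against the other lines for many members, as it did for many of all genes tested. In 21 of the 39 tested members clone c was shifted to the opposite side of the vector mean from the mix, clone a and clone b, beside 41.6% of all genes tested. In HOXD9 the same held for 1 member, KIF1C, a kinesin-3 of Golgi traffic, beside 5.85%. In HOXD13 clone c the members at least 1 log2 unit from the vectors were KIF20B (1.77), KIF18A (1.22) and KIF14 (1.09), all higher, or 3 of 39, beside 3.23% of all genes tested. In the HOXD13 mix they were 2 of 39 (KIF9 higher and KIF21B lower), beside 3.32%, and in clone a 4 of 39 (KIF3C and KIF9 higher, KIF21B and DYNC2LI1 lower), beside 7.29%. In clone b of HOXD13 they were 5 of 39 (KIF3C and KIF9 higher, KIF21B, DYNC2LI1 and DYNC2H1 lower), beside 10.1%. Clone c also had the ACTB difference farthest from the vectors in the HOXD13 group. With that difference as a covariate, 8 members were called with HOXD13, beside 25.1% of all genes tested. These were KIF21B, KIF1A, DYNC1I2 and KIF9 again, with KIF20A (0.54), KIF3C (0.64) and KIF7 (0.28) higher and KIF2C (-0.34) lower.

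Without HOXD13 clone c, 15 of the 39 members were called, 7 higher and 8 lower, while 3701 of 10349 genes (35.8%) were called, 18.9% higher and 16.8% lower. The higher members were KIF9 (1.10), KIF3C (0.96), KIF20A (0.78), KIF1B (0.55), KIF7 (0.41), KIF3B (0.28) and KIF13A (0.24), where KIF3B is a kinesin-2 motor of the cilium and KIF13A an endosomal carrier. The lower members were KIF21B (-1.37), DYNC2LI1 (-0.98), DYNC2H1 (-0.80), KIF21A (-0.68), DNAH14 (-0.58), DYNC1I2 (-0.58), KIF1A (-0.47) and KIF2C (-0.30). Without both clone c lines, 21 members were called beside 50.8% of all genes tested. The omission of both lines was added after the data were seen. In both fits the share of members called was near that of all genes.

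**Figure D4:**
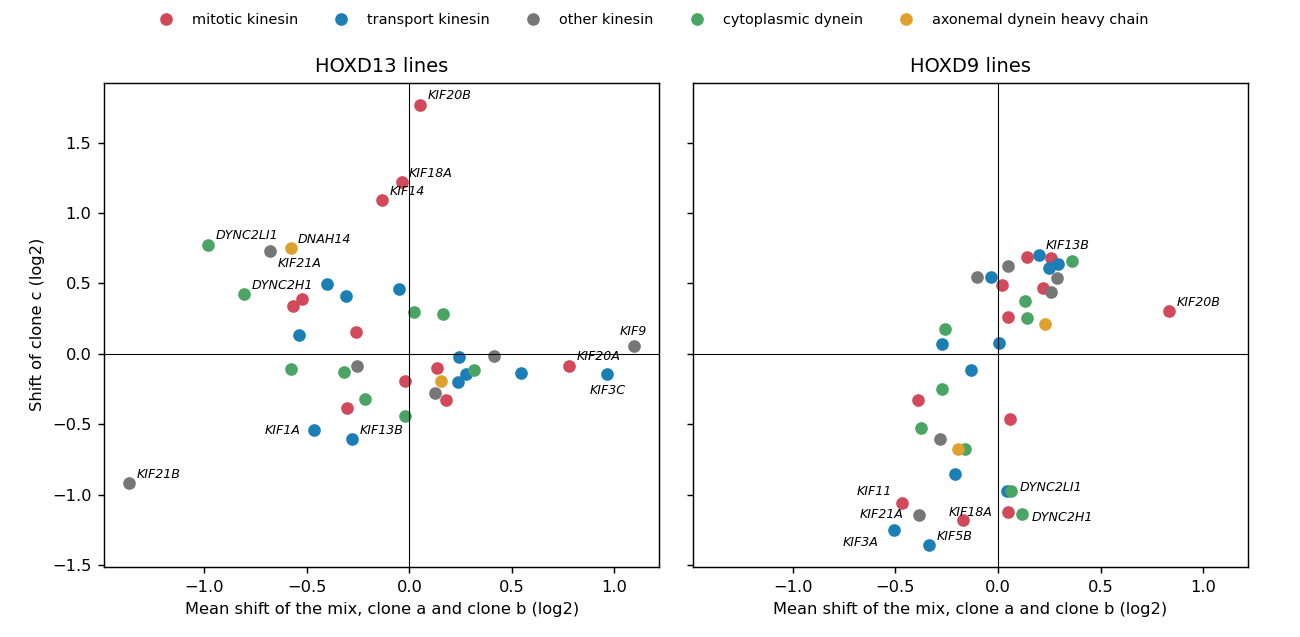
Shift of clone c from the vector mean (log2, vertical axis) against the mean shift of the mix, clone a and clone b (log2, horizontal axis) for the 39 tested members, HOXD13 lines on the left and HOXD9 lines on the right, coloured by role. With HOXD13, DYNC2LI1 has clone c at 0.77 and the other lines at a mean of -0.98, and KIF21B is low in both; with HOXD9, KIF5B has clone c at -1.36.

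With HOXD9, no member passed the threshold. Of the 39 tested members, 0 were called by limma, beside 0.00966% of all genes tested (1 gene), and 11 of 39 had an unadjusted p under 0.05, beside 23.5%. The median log2 fold change of the members was -0.07, beside 0.08 over all genes tested. All 4 HOXD9 lines lay outside the 3 HA vector arrays for 19 of the 39 members, 9 above and 10 below, beside 36.6% of all genes tested (22.4% above and 14.1% below).

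The 10 members below the HA vector were 3 transport kinesins (KIF3A, KIF5B and KIF1B), 3 mitotic kinesins (KIF11, KIF15 and KIF23), KIF2A, DNAH14, DYNC1I2 and DYNC1LI2. For KIF1B this held on the probe set used, and its other probe sets differed by -0.26 and 0.31 with HOXD9. On the last of these all 4 HOXD9 lines lay above the HA vector, so the direction of KIF1B is not settled. KIF3A, the kinesin-2 subunit needed to build cilia, read 7.96, 7.36, 8.09 and 7.06 in the HOXD9 mix and clones a, b and c, while the HA vector arrays read 8.44, 8.28 and 8.22. All 4 HOXD9 lines of KIF3A lay below, clone c most, and the log2 fold change was -0.69 ± 0.27 (SE, adjusted p = 0.167). KIF11 read 9.57, 8.65, 9.64 and 8.70 in the same HOXD9 lines, while the HA vector arrays read 9.75, 9.79 and 9.74. Clones a and c of KIF11 stood more than 1 below the vectors and the mix and clone b near them, for a log2 fold change of -0.62 ± 0.28 (SE, adjusted p = 0.201). KIF5B read 9.60, 9.48, 9.89 and 8.63 in the HOXD9 lines and 9.98, 10.03 and 9.98 in the HA vector arrays, a difference of -0.59 ± 0.26 (SE, adjusted p = 0.200).

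Other members on the low side with HOXD9 were KIF21A (-0.58 ± 0.34), KIF15 (-0.42 ± 0.28) and DYNC1LI1 (-0.42 ± 0.15, all SE, adjusted p = 0.291, 0.334 and 0.154). A second probe set of DYNC1LI1 differed by 0.02. KIF2A had the lowest adjusted p of these contrasts together with DYNC2I2, 0.147. It read 8.91, 8.68, 8.93 and 8.52 in the HOXD9 mix and clones a, b and c, while the HA vector arrays read 9.14, 9.11 and 9.13. DYNC1I2 and DYNC1LI2 were below the vectors in all 4 HOXD9 lines, by -0.27 ± 0.13 and -0.29 ± 0.14 (SE, adjusted p = 0.224 and 0.215). In DYNC1LI1, DYNC2H1 (-0.20 ± 0.35), DYNC2LI1 (-0.20 ± 0.40) and DYNC1I1 (-0.15 ± 0.21, all SE) the lines overlapped the vectors.

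The 9 members above the HA vector were KIF20B, DYNC2I2, KIF22, KIF7, KIF1A, KIF9, KIF2C, KIF20A and DNAH3. KIF20B read 5.79, 5.49, 6.13 and 5.27 in the HOXD9 mix and clones a, b and c, while the HA vector arrays read 5.06, 4.82 and 5.04. Its 4 lines lay above the vectors at signals not far from the filter, and the log2 fold change was 0.70 ± 0.39 (SE, adjusted p = 0.272). DYNC2I2 read 8.32, 8.53, 8.18 and 8.64 in the HOXD9 lines and 7.92, 7.94 and 8.08 in the HA vector arrays, a difference of 0.43 ± 0.14 (SE, adjusted p = 0.147). All 4 lines of DYNC2I2 stood above the vectors. KIF22, a chromokinesin that pushes chromosome arms outward, differed by 0.36 ± 0.13 (SE, adjusted p = 0.158). KIF3C (0.38 ± 0.27), KIF7 (0.35 ± 0.15) and KIF1A (0.34 ± 0.12, all SE) were also on the higher side, with adjusted p-values of 0.361, 0.186 and 0.154. DYNC1H1 differed by 0.19 ± 0.11, DYNC2I1 by 0.17 ± 0.11, DNAH3 by 0.22 ± 0.14 and DNAH14 by -0.32 ± 0.29 (all SE).

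With HOXD9, shifts of at least 1 log2 unit below the vectors were most often those of clone c. Clone c was not low throughout: its median shift was 0.075 over the members and 0.197 over all genes tested. KIF18A had the widest range, with 5.60, 5.01, 5.91 and 4.33 in the HOXD9 mix and clones a, b and c, while the HA vector arrays read 5.52, 5.45 and 5.40. In clone c, 7 of the 39 members were at least 1 log2 unit below the HA vector mean, beside 11.7% of all genes tested: KIF5B (-1.36), KIF3A (-1.25), KIF15 (-1.18), DYNC2H1 (-1.14), KIF21A (-1.14), KIF18A (-1.13) and KIF11 (-1.06). In clone a the same held for KIF11 (-1.11), in clone b KIF20B was 1.16 above, and in the mix no member was 1 log2 unit away, beside 5.87% of all genes below in clone a, 0.222% above in clone b and 0.0483% in either direction in the mix. Across genes, Spearman's rho between shift and gene length was -0.37 to -0.24 in the 4 HOXD9 lines over 10345 genes, and over the 39 members -0.31 in HOXD9 clone c and -0.10 to -0.04 in the other 3. In HOXD13 clone c it was 0.27 over all genes and 0.17 over the members, while the other 3 HOXD13 lines gave -0.25 to -0.15 over all genes and -0.18 to -0.08 over the members. These are descriptions with no test, since genes are not independent replicates.

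Without HOXD9 clone b, 3 members were called with HOXD9, beside 8.50% of all genes tested: DYNC2I2 (0.52) and KIF22 (0.45) higher and KIF2A (-0.42) lower. Without HOXD13 clone c, which shares the estimate of the spread, DYNC2I2 (0.43) and KIF2A (-0.36) were called, beside 10.6%.

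The effects of the 2 HOX genes differed for 3 of the 39 members, all lower with HOXD13 than with HOXD9, beside 9.63% of all genes tested in either direction, 1.52% higher and 8.12% lower. The tag, the vector and the separately normalized set changed along with the HOX gene, so their parts in such a difference cannot be told apart. The difference of effects (HOXD13 minus V5 vector, less HOXD9 minus HA vector) was -1.45 ± 0.23 (SE) for KIF21B (adjusted p = 0.00358), -0.82 ± 0.17 for KIF1A (adjusted p = 0.0113) and -0.61 ± 0.15 for KIF2C (adjusted p = 0.0271), from limma. KIF21B read 5.98, 5.79, 5.83 and 6.44 in the HOXD9 mix and clones a, b and c, while the HA vector arrays read 5.88, 5.69 and 5.88. The mix and clone c were above the vectors and clones a and b among them, for a log2 fold change of 0.19 ± 0.16 (SE, adjusted p = 0.432). The neuronal marker GAD1, which makes the transmitter GABA, had a difference of effects in the same direction, -0.96 (adjusted p = 0.0165). It averaged 5.10 in the HOXD13 lines and 5.53 in the V5 vector, and 5.49 in the HOXD9 lines and 4.96 in the HA vector. SYT1, the other neuronal marker tested, had a difference of effects of 0.17 by limma (adjusted p = 0.758), the opposite sign. The remaining 4 of the 6 neuronal markers were below the filter. Of these, STMN2 averaged 4.08 in the HOXD13 lines and 2.565 in the V5 vector, on the side opposite to GAD1. RBFOX3 averaged 3.39 in the HOXD9 lines and 2.96 in the HA vector, on the side of GAD1. SNAP25 and SLC17A6 differed little from their vectors.

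KIF1A and KIF2C stood on opposite sides of their vectors with the 2 HOX genes. KIF1A read 8.38, 8.68, 8.45 and 8.87 in the HOXD9 mix and clones a, b and c, while the HA vector arrays read 8.22, 8.30 and 8.26. KIF2C read 10.48, 10.80, 10.46 and 10.83 in the same HOXD9 lines and 10.43, 10.33 and 10.33 in the HA vector arrays, a difference of 0.28 ± 0.11 (SE, adjusted p = 0.167). For both genes all 4 HOXD9 lines were above the HA vector and all 4 HOXD13 lines below the V5 vector. Second probe sets of KIF2C differed by -0.35 with HOXD13 and 0.40 with HOXD9. The call of KIF2C ended without any 1 of the 6 vector arrays and without the HOXD13 mix or clone a (adjusted p = 0.0540 to 0.0802), and that of KIF1A ended when its probe sets were averaged (adjusted p = 0.103). Without HOXD13 clone c, 7 members differed between the HOX genes, beside 22.2% of all genes tested, and without HOXD9 clone b 6 did, beside 16.1%. KIF13B (-0.69, adjusted p = 0.0568), DYNC2I2 (-0.56, 0.0882) and DYNC1H1 (-0.43, 0.0884) followed below the threshold.

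Partners of the motors outside the 3 name families were taken from a list of 56 other subunits, adaptors and regulators, of which 45 were tested. With HOXD13, 0 of the 45 rose and 5 fell, near the shares of all genes tested (2.88% higher and 7.76% lower), and the median log2 fold change of the 45 was -0.13, beside -0.03 over all genes tested. DCTN2, the dynamitin subunit of dynactin, read 10.20, 10.10, 10.10 and 10.38 in the HOXD13 mix and clones a, b and c, while the V5 vector arrays read 10.91, 10.89 and 10.99. All 4 lines of DCTN2 were below the vectors, with a log2 fold change of -0.73 ± 0.12 (SE, adjusted p = 0.00316). KLC1, a light chain of kinesin-1, fell by 0.51 on the log2 scale (adjusted p = 0.0357), DNAL4, an axonemal dynein light chain, by 0.48 (0.0311), CAPZB, the capping protein subunit at the end of the dynactin filament, by 0.42 (0.0417) and DYNLT1, a dynein light chain, by 0.31 (0.0416). The call of DCTN2 held in all 24 other settings, while those of KLC1, CAPZB and DYNLT1 ended in 12 of 24 each and that of DNAL4 in 7 of 23. With HOXD9, 0 of the 45 were called and their median was 0.08. The difference of effects was called lower for 5 of 45, beside 8.12% of all genes tested: DCTN2 (-1.10, adjusted p = 0.00300), DCTN3, a second dynactin subunit (-0.65, 0.0197), KLC1 (-0.81, 0.0237), DNAL4 (-0.74, 0.0242) and CAPZB (-0.60, 0.0440). Of these calls, that of DCTN2 held in all 23 other settings, while that of CAPZB ended in 12 of 23, that of KLC1 in 6 of 23, that of DNAL4 in 6 of 22 and that of DCTN3 in 4 of 23.

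Mitosis genes outside the motor families numbered 25, of which 23 were tested. With HOXD13, 1 of the 23 rose and 2 fell by the brightest probe set of each gene, beside 2.88% higher and 7.76% lower of all genes tested, and the median was -0.05. MKI67, the proliferation antigen, read 11.16, 11.35, 11.28 and 10.39 in the HOXD13 mix and clones a, b and c, while the V5 vector arrays read 9.66, 9.71 and 9.89, a log2 fold change of 1.29 ± 0.23 (SE, adjusted p = 0.00493). All 4 lines lay above the vectors on that probe set, clone c nearest. The other probe sets of MKI67 disagreed, with differences of 0.41, -1.45 and -2.27, and the mean of all 4 was -0.50 (adjusted p = 0.110), so these arrays give MKI67 no settled direction. CCNB2, a mitotic cyclin, fell by 0.47 (adjusted p = 0.0159) and PRC1, which bundles the central spindle and is a partner of KIF4A and KIF14, by 0.37 (adjusted p = 0.0297). The call of CCNB2 ended in 4 of 24 other settings and that of PRC1 in 11, among them the omission of any 1 V5 vector array. With HOXD9, 0 of the 23 were called and their median was -0.06. The direction of these lists was not tested as a whole.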

How the data were processed

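Each of the 14 Affymetrix arrays has 1 deposited log2 expression value for each probe set; the scale was read from the values, and the authors made them with GCRMA, per the submitters' processing notes. For the GCRMA version and for a genome build the entry is "not given in the sources used here". Sorted values were identical to within 0.00102 over the 7 arrays of the HA set and to within 0.00195 over the 7 of the V5 set, so the sets were normalized separately and levels were compared within a set. GCRMA corrects the background by probe sequence and leaves undetected transcripts near a common floor of about 2, where differences depend on the background model. The number of arrays limits the precision.

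Probe sets with 1 symbol in the platform annotation of 2016 were kept (41097 of 54675), and symbols were updated through RefSeq (41043 matched). A probe set was tested at a log2 value of at least 5 on at least 3 arrays, and a gene was read by the brightest of its passing probe sets (mean of 14 arrays). The 4 group means were fitted in limma 3.58.1 (lmFit, eBayes; R 4.3.3; 10 residual and 3.02 prior degrees of freedom), two-sided, with Benjamini-Hochberg adjustment over 10349 genes and a threshold of 0.05. The code was tested on simulated data. Adjusted p-values are from limma, and levels of different probe sets were not compared.

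The members, their roles and the lists were chosen with earlier results of these data known. Named were all called members, the 6 largest differences in each direction per HOX gene, all cytoplasmic dynein and tested axonemal members, the 2 with the widest range per HOX gene and the called companions; KIF14 and any other member named was picked with its values in view. No 2 arrays held identical values. Alternatives were the filter, the probe set rule, centring, array weights, a trended robust fit, single sets, the ACTB difference as a covariate and each array left out, with 2 added after the data were seen: without both clone c lines, and without the 3 lines of most deviating ACTB difference. Plots were made in Python 3.11.15 (matplotlib 3.10.9).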

Additional observations from a re-analysis of the deposited data

Results flagged for a closer look

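In 6 of the 78 groups of 4 HOX lines examined among the tested members, 1 line stood apart from the other 3 by Dixon's 95% criterion, where chance flags about 1 in 20 groups. All 6 were clone c. In HOXD9 clone c, DYNC1LI2 read 9.60 and the next line 10.07, KIF1B read 8.78 and the next 9.38, KIF15 read 5.93 and the next 6.90, and KIF1C, on the high side, read 7.45 and the next 6.90. In HOXD13 clone c, KIF9 read 7.44 and the next line 8.43, and KIF16B, on the high side, read 7.62 and the next 7.16.

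The effects of HOXD13 and HOXD9, each with its own tag, vector and array set, differed by limma's test of the difference for 3 members. The difference was -1.45 on the log2 scale for KIF21B, -0.82 for KIF1A and -0.61 for KIF2C, with 4 of 4 HOXD13 lines below the V5 vector for each.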

How the results depend on the processing

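No paired analysis was possible because the HOX lines (mix, a, b, c) and the vector arrays (1 to 3) share no replicate numbers. Of the 5 called members, KIF21B kept its calls in every setting that tested it, while the others lost calls in the settings given beside them. With the ACTB covariate, members called numbered 8 with HOXD13 and 9 for the difference of effects, and all genes called 2596, 50 with HOXD9 and 2025; without both clone c lines these were 21, 3 with HOXD9 and 12, and 5254, 1076 and 3514; without the 3 lines of most deviating ACTB difference they were 8 and 5, and 3259, 102 and 2058. Array weights called 1772 genes with HOXD13. With HOXD9, all genes called were 6 without a filter, 3 with the stricter filter, 2 with the mean of probe sets and 0 on the 7 arrays of its own set. Leaving out 1 array at a time gave 1 to 15 members and 303 to 3701 genes with HOXD13, 0 to 3 members and 0 to 1100 genes with HOXD9, and 2 to 7 members and 384 to 2299 genes for the difference; the highest counts, except the 3 members with HOXD9, came without HOXD13 clone c.

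Over these and the remaining settings, calls of named members held in 124 cases and ended in 39, 38 values below the threshold passed it, and 17 turned direction, all of members that were not called. Leaving out 1 array put DNAH3 between -0.004 and 0.155, KIF18A between -0.037 and 0.447 and KIF5B between -0.311 and 0.015 with HOXD13. With HOXD9 it put DYNC1I1 between -0.258 and 0.032, DYNC2H1 between -0.365 and 0.119, DYNC2LI1 between -0.339 and 0.061, KIF18A between -0.479 and 0.049 and KIF5C between -0.403 and 0.045. Without both clone c lines KIF18A was -0.037 with HOXD13, and with HOXD9 DYNC2H1 was 0.119, DYNC2LI1 0.061, KIF18A 0.049 and KIF5C 0.045. DYNC1I1 was 0.032 without the 3 lines. With the ACTB covariate and HOXD9, DYNC2H1 was 0.078, DYNC2LI1 0.147 and KIF18A 0.081. With the mean of its probe sets MKI67 was -0.504 with HOXD13. The cause was not tested. Dim members near the floor, 1 array per line and vector arrays that vary far less than the lines limit these values.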
